A study of Mus musculus with 39 samples.

Results

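Among 15 single crypt cells of Cluster 2, 8 held RNA of Ly6a or Clu at 1 FPKM or more and 7 held both genes below that level. FPKM counts fragments relative to the length of the transcript and to the total of each cell. The cells were chosen by these measured values, so their Ly6a and Clu levels are a description. The 8 cells (Ly6a/Clu-positive cells, or positive cells) were numbers 02, 05, 34, 43, 48, 51, 67 and 92, and the 7 negative cells were numbers 04, 16, 29, 56, 63, 94 and 96. The 15 cells were those printed as Cluster 2 in the study's heat map of intestinal stem cell signature genes, out of 39 sequenced cells. The positive cells made up 53.3% of the 15 (95% exact binomial interval 26.6% to 78.7%, counting error only).

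All cells came from the crypts of the small intestine of mice with the genotype Lgr5-EGFP-Ires-CreERT2:Rosa-lsl-tdTomato. Tamoxifen was given 24 h before total body irradiation (TBI) with 10 Gy, and cells were taken 48 h after it. In this line the Cre recombinase is driven from the Lgr5 locus, so tdTomato marks cells that expressed Lgr5 at the time of tamoxifen and their descendants. The sort kept tdTomato+ cells without Sca1 on their surface, and no unirradiated cell was sequenced. No animal is named for any cell, so the 15 cells count as 1 biological sample. Every SD below is a spread over cells, no p-value was computed, and no difference below was tested between animals.

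Ly6a encodes Sca1, a small lipid-anchored surface protein of the Ly6 family that is low in resting small-intestinal crypts and appears in injured or foetal-like epithelium. Clu encodes clusterin, a secreted chaperone that marks rare crypt cells called revival stem cells, which expand after irradiation. Both genes belong to programmes that involve YAP, a transcriptional co-activator that works with TEAD factors and is held in check by the Hippo pathway. The sort left out cells with Sca1 protein on the surface and did not measure Ly6a RNA.

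Ly6a RNA was high in 2 of the Sca1-sorted cells and near the limit in 2 more. Cell 34 held 509 FPKM (1942 estimated reads), cell 05 held 477 FPKM (1620 reads), cell 02 held 3.44 FPKM (11 reads) and cell 43 held 1.26 FPKM, which was 1 read in a shallow library. Cell 43, just inside the limit, and cell 16, just outside it with 0.809 FPKM from 3 reads, therefore stood in the reverse order by reads. Cells 29 and 94 held 0.337 and 0.340 FPKM from 1 read each, and the remaining cells of the 15 held none. In the 24 cells outside Cluster 2, Ly6a had 0 reads throughout, which allows a share of cells with a read of up to 14.2% (exact 95% interval). Ly6a lies on chromosome 15 from 74994877 to 74998031 (mm10, from the deposited start and width).

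Clu RNA covered a wider range of levels. Cell 92 held 1124 FPKM (6551 reads), cell 67 held 304 FPKM (1496 reads), cell 51 held 56.1 FPKM (388 reads) and cell 48 held 5.84 FPKM (43 reads). The highest value below the limit was 0.754 FPKM (4 reads) in negative cell 94, and cells 04, 05 and 34 held 1 read each. Outside Cluster 2, Clu reached 1 FPKM in 2 of 24 cells, at 126 and 8.52 FPKM. Clu lies on chromosome 14 from 65968483 to 65981545 (mm10).

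No cell passed the limit by both genes. Cells 02, 05, 34 and 43 passed the limit by Ly6a (Ly6a cells), and cells 48, 51, 67 and 92 passed it by Clu (Clu cells). Of the 15 cells, 0 held both genes at 1 FPKM or more, which allows a share of up to 21.8% (exact 95% interval, counting error only). With so few cells passing by either gene, this describes the values that set the sides and says nothing of whether the genes exclude each other. The plot of Ly6a against Clu shows the 2 arms.

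**Figure D1:**
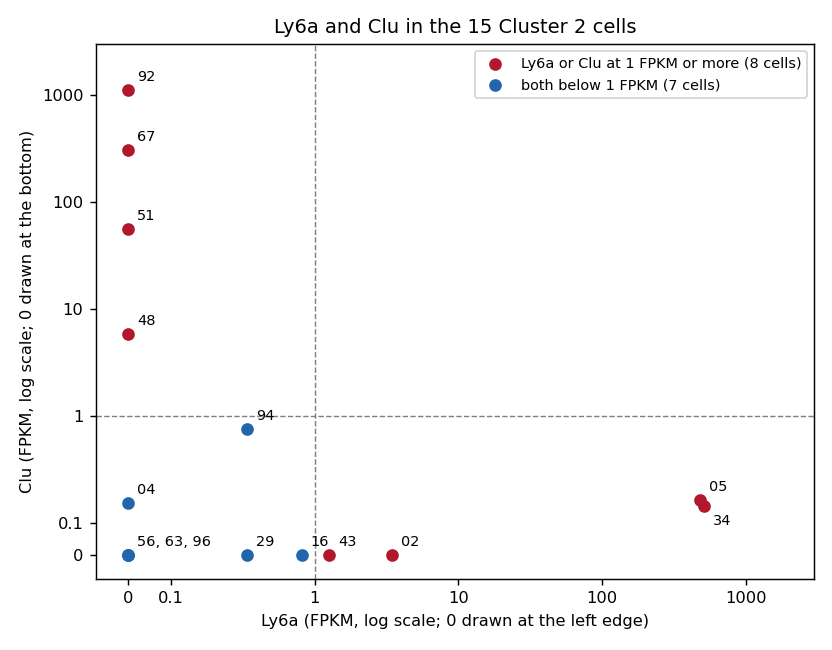
Ly6a (horizontal) and Clu (vertical) in FPKM on log axes in the 15 Cluster 2 cells, each a numbered point, with values of 0 drawn at the edge and dashed lines at 1 FPKM. Ly6a cells 05 and 34 lie far right and Clu cells 51, 67 and 92 far up, while the upper right field is empty and cells 16, 43 and 94 lie near the limit.

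The cells were of crypt epithelium on both sides. Epcam, an epithelial adhesion molecule, lay between 115 and 435 FPKM in the positive cells and between 19.8 and 423 FPKM in the negative cells. Of 23 immune cell markers, Itgam (2.75 FPKM in cell 02) and Lyz2 (1.58 FPKM in cell 63) passed 1 FPKM in a cell, and of 17 stromal and endothelial markers only Tagln did (2.48 FPKM in cell 48). The defining immune gene Ptprc was at 0 FPKM in all 15 cells. Depth ran from 661255 (cell 43) to 3541438 estimated reads on genes in the positive cells and from 1695298 to 3288499 in the negative cells. Positive cells had more genes at 1 FPKM or more, 3191 to 5779 with a median of 4758.5, against 2988 to 4695 with a median of 3846. After each cell was thinned to 600000 reads, the medians of genes with a read were 5300.5 and 4367, so the gap remained at equal depth. The part of this gap in the results below was not tested.

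Genes were in use when their 15 values averaged 1 FPKM or more, which left 8948. Over these, the mean log2(FPKM + 1) was higher in the positive cells by a median of 0.32. This shift was 0 with the median over cells and 0.09 with the limit for the sides at 10 FPKM. It was 0.56 with the limit at 0.1 FPKM, where only cells 56, 63 and 96 stayed negative. Differences below are positive minus negative cells in mean log2(FPKM + 1), and they sit on top of that general shift. The scale understates changes of low genes. In the positive cells 580 genes (6.48%) were higher by at least 2 log2 units and 160 (1.79%) were lower by at least 2. The counts were 1142 and 381 with the median over cells and 1073 and 503 with the limit at 0.1 FPKM. With sides set by Ly6a alone they were 1057 and 120. Ly6a and Clu, which the choice used, are left out of the genes named next.

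The 12 genes with the largest higher values included several metabolic enzymes. Akr1c19, an aldo-keto reductase, held 70.0, 0, 98.1 and 24.4 FPKM in Ly6a cells 02, 05, 34 and 43 and 584, 54.1, 1049 and 2.25 FPKM in Clu cells 48, 51, 67 and 92. Its highest value in a negative cell was 0.237 FPKM, and the difference was 5.48 (SD over cells 3.41 and 0.12). Only cell 05 among the positive cells overlapped with the negative ones. Gstm1, a glutathione S-transferase, had a median of 256 FPKM against 0, although it was at 0 in cell 92 and at 268 FPKM in negative cell 63 (difference 5.07, and 1.55 with the limit for the sides at 0.1 FPKM). Ces2e, an intestinal carboxylesterase, ranged from 4.37 to 729 FPKM around a median of 169 in the positive cells and from 0.102 to 338 around 0.372 in the negative ones (difference 4.68). Ugt1a7c, a UDP-glucuronosyltransferase, ranged from 2.01 to 184 FPKM around a median of 35.1 in the positive cells. It stayed at or below 1.97 FPKM in the negative cells (difference 4.52), so the sides did not overlap.

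The rest of these 12 genes had other roles. Rbp2, which carries retinol in absorptive cells, was at 24.9 FPKM or more in cells 02, 34, 43, 51 and 67, at 8.41 FPKM in cell 48 and at 0 in cells 05 and 92. Its highest negative value was 3.62 FPKM, in cell 16. Tom1l1, an adaptor of vesicle sorting, ranged from 6.07 to 416 FPKM against 0 to 6.84 FPKM, and the ranges touched between cells 05 and 04. Ndufa10, a subunit of respiratory complex I, ranged from 20.7 to 511 FPKM against 0 to 344 FPKM. Dynlt3, Mrpl40, Aarsd1, Apoa1bp and Itpa completed the list with differences of 4.52 to 4.93. For all 12, which were picked for their large differences, the difference was larger than the SD over cells on each side. Of the 8948 genes in use, 220 were higher by more than both SDs. With the limit for the sides at 0.1 or 10 FPKM, or with Ly6a alone, the 12 differences stayed above 0 and were lowest for Gstm1 (1.55), Apoa1bp (1.72) and Akr1c19 (1.90).

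The 12 genes with the largest lower values included Mmp7, the metalloproteinase that activates Paneth cell defensins. It was at 0 FPKM in 7 of the 8 positive cells and at 4.77 FPKM in cell 51. Negative cells held 6.9, 456, 0, 151, 1471, 59.0 and 0 FPKM in cells 04, 16, 29, 56, 63, 94 and 96, a difference of -4.76. Cells 29 and 96 thus did not follow their side. Cdk4, a kinase of the G1 phase, lay between 281 and 621 FPKM in every negative cell. In the positive cells it ran from 0 to 377 FPKM around a median of 124, with 0.365 and 0 FPKM in Clu cells 48 and 67 and values inside the negative range in cells 02 and 43. The difference was -3.36, with an SD over cells of 3.46 in the positive cells. It was -1.97 with the median over cells and 0.01 with sides set by Ly6a alone, where the Clu cells count as negative.

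Prom1, a membrane protein of stem and progenitor cells, was at 19.9 FPKM or less in the positive cells. It ran up to 550 FPKM in the negative cells around a median of 35.1, with the highest values in cells 96 and 16. Its difference shrank to -0.27 with the limit for the sides at 0.1 FPKM and to -0.43 with sides set by Ly6a alone. Tmem106c was at 0 FPKM in 7 positive cells, at 85.1 FPKM in cell 34, and between 88.1 and 197 FPKM in negative cells 04, 29, 56, 63 and 94. Anks4b, a scaffold of the brush border, was at 0 FPKM in all 8 positive cells and at 28.4 to 282 FPKM in negative cells 56, 63, 94 and 96. Thap11, Snupn, Tmem171, Pipox, Gltscr2, Rngtt and Tmem251 made up the remainder, with differences of -3.71 to -3.27. With the limit for the sides at 0.1 FPKM, Snupn turned to 1.95, Gltscr2 shrank to -0.77 and Pipox to -0.94. For 9 of these 12 genes, also picked for their large differences, the difference exceeded both SDs. Of the 8948 genes in use, 44 were lower by more than both SDs.

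**Figure D2:**
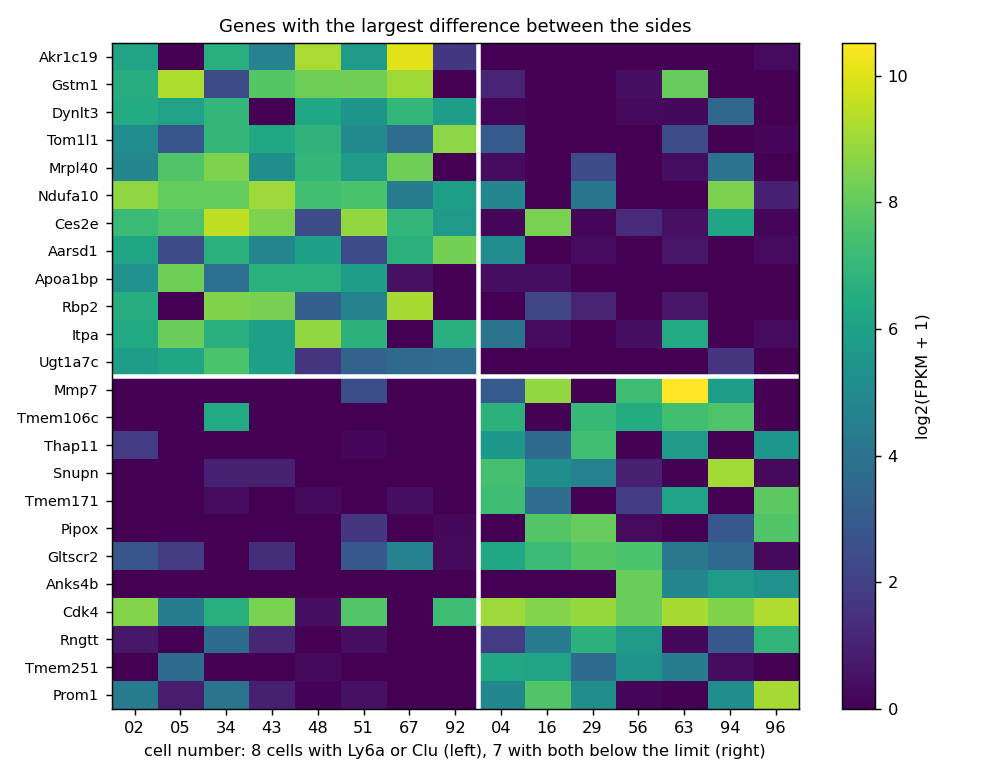
The 12 genes with the largest higher and the 12 with the largest lower mean in the positive cells (rows, split by the horizontal white line), in each of the 15 cells (columns, split by the vertical white line), as log2(FPKM + 1) by colour. Blocks are broken by single cells, such as Gstm1 in cell 63, Ces2e in cell 16, Tmem106c in cell 34 and Cdk4 in cells 02 and 43.

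Full separation of the sides was rare. In 2 of the 8948 genes (0.0224%) every positive cell lay above every negative cell, and in 0 genes was it the other way round. They were Ugt1a7c, with a gap of 0.02 log2 units, and 2010012O05Rik, with a gap of 0.19. The latter was at 0 FPKM in all negative cells and ran from 0.143 FPKM (cell 92) to 54.3 FPKM (cell 48) in the positive ones.

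Some markers of revival and foetal-like epithelium were higher in the positive cells, and the cells of both sides overlapped in them. Of 23 names, 18 were in use, and without Ly6a and Clu 4 of 16 were at least 2 log2 units higher, against 6.48% of all genes, with a median difference of 0.95. Plaur, the urokinase receptor, held 8.09, 12.9, 97.1, 83.1, 0, 120, 383 and 0 FPKM in cells 02, 05, 34, 43, 48, 51, 67 and 92. It was above 1 FPKM in 2 negative cells, 16 (3.48 FPKM) and 94 (27.8 FPKM), and the difference was 3.43 (SD over cells 3.24 and 1.88). Anxa3, an annexin, held 629 FPKM in cell 05, 595 in cell 67, 392 in cell 51, 232 in cell 92 and 138 in cell 34. It was absent from positive cells 02 and 43 and stood at 212 and 174 FPKM in negative cells 16 and 29, a difference of 3.03 that was smaller than the SD over the positive cells.

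Tnfrsf12a, the receptor of the cytokine TWEAK, ranged from 0.322 to 577 FPKM around a median of 223 in the positive cells. Negative cells stood at 132, 167 and 247 FPKM in cells 16, 94 and 96 and at 0.353 FPKM or less in the other four (difference 2.96). Il1rn, the interleukin-1 receptor antagonist, was at 38.2 to 224 FPKM in cells 02, 05, 34, 51 and 67 and at 0 FPKM in the other positive cells. Among the negative cells it was found in cell 16 alone, at 164 FPKM (difference 2.78). Anxa2, the most abundant member, was above 511 FPKM in every positive cell, with a median of 1181 FPKM against 506 FPKM. Some members belonged to single cells: Anxa1 was at 329 FPKM in cell 92, Vnn1 at 36.6 FPKM in cell 02 and Gja1 at 53.6 FPKM in cell 94. Each of these was at or below 0.112 FPKM elsewhere.

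**Figure D3:**
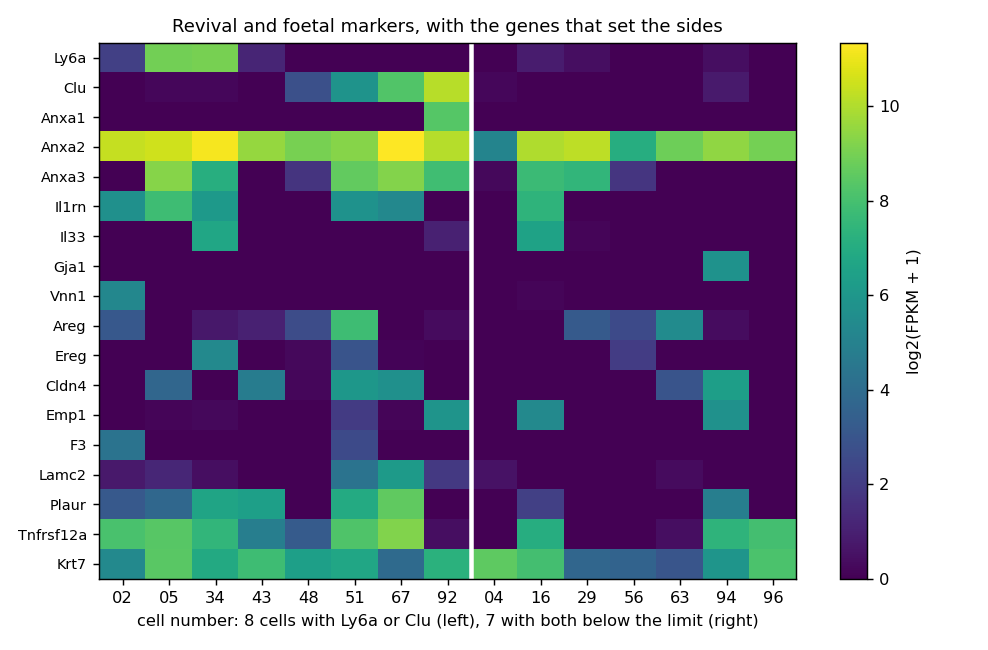
Revival and foetal markers that reached 1 FPKM in a cell (rows) in the 15 cells (columns, positive cells left of the white line), as log2(FPKM + 1) by colour, with Ly6a and Clu, which set the sides, as the top rows. Positive cells 43 and 48 are dark for Anxa3 and Il1rn, and negative cell 16 is bright for Anxa3, Il1rn, Il33 and Tnfrsf12a.

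The wider YAP signature of the study had 416 names, of which 408 were measured and 181 in use. It stayed close to the background. It shares 18 genes with the revival and foetal list, so the 2 lists are not separate sets. Ly6a and Clu are members of the signature. Without them, 11 of 179 genes (6.15%) were at least 2 higher and 2 (1.12%) at least 2 lower, against 6.48% and 1.79% of all genes. The median difference of the 179 was 0.59, which is 0.27 above the median of all genes. With sides set by Ly6a alone it was 0.30, below the 0.39 of all genes. With the median over cells both were 0. By cell, and again without Ly6a and Clu, 124 members reached 1 FPKM in cell 51, 89 in cell 02, 78 in cell 34 and 70 in cell 05, and 43 to 56 in cells 43, 48, 67 and 92. Of the negative cells, 68 members did so in cell 16 and 33 to 53 in the others. Phlda2, an imprinted growth regulator, had the largest difference of the list, 3.74. It reached 1 FPKM in 7 of 8 positive cells, up to 128 FPKM in cell 43, and in negative cell 16 only at 1.10 FPKM. Id3, an inhibitor of DNA binding, went the other way (difference -2.69), with medians of 24.1 and 125 FPKM and the top value of 640 FPKM in cell 16.

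Direct YAP and TEAD targets were scarce on both sides. Of 20 names 10 were in use and none differed by 2 or more, with a median difference of 0.56, which was 0.25 without cell 67. By cell the order was the reverse, since the median of the cells' mean levels was 0.65 in the positive and 0.80 in the negative cells on the log2 scale. Cyr61, a secreted matrix protein and classical target, was at 124 FPKM in cell 51, at 16.4 FPKM in cell 34 and at 2.26 FPKM or less elsewhere. Yap1 itself ran from 0.118 to 78.6 FPKM in the positive and from 0 FPKM upward in the negative cells, highest in cell 94 (difference 0.47). Cell 51 held 8 of these targets at 1 FPKM or more and cell 16 held 0, the ends of the range.

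In the Ly6 family, 6 of 25 measured names passed 1 FPKM in a cell. Ly6e, a neighbour of Ly6a on chromosome 15, was above 1 FPKM in all 8 positive cells, with 540 FPKM in cell 34, 61.3 in cell 02 and 1.71 in cell 51 at the low end. The negative cells held 13.8, 31.1, 0, 0.181, 0.436, 1.33 and 0 FPKM in cells 04, 16, 29, 56, 63, 94 and 96 (difference 3.25, SD over cells 2.45 and 2.04). Lypd8, a secreted Ly6-like protein, ran from 190 to 1235 FPKM in every positive cell. Across the negative cells it spread from 0 FPKM in cell 96 to 1486 FPKM in cell 16 (difference 2.67). The others sat in single cells, with Ly6g5b at 9.41 FPKM in cell 04, Ly6g6c at 2.45 FPKM in cell 51 and Ly6g6f at 55.8 FPKM in cell 96.

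S100 and annexin genes, both families of calcium-binding proteins, had a median difference of 1.01, which was 0.13 with sides set by Ly6a alone. Of 18 in use, 2 were at least 2 higher (11.1%, against 6.48% of all genes). They were Anxa3 and S100g, an intestinal calcium-binding protein that held 131, 88.8 and 566 FPKM in cells 34, 67 and 92 and 0 FPKM in the other 12 cells. S100a6 spread from 0 FPKM (cell 48) to 2121 FPKM (cell 05) within the positive cells and from 1.64 to 531 FPKM within the negative ones. Its difference was -0.70, but it turned to 0.11 without cell 48 and to 1.78 with the limit for the sides at 10 FPKM. S100a10 was steadier, with medians of 634 and 310 FPKM.

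Targets of p53, the transcription factor activated by DNA damage, were higher in the positive cells by a median of 1.31, and of 0.59 with sides set by Ly6a alone. Of 22 in use, 4 were at least 2 higher, Ccng1, Fas, Trp53inp1 and Perp (18.2%, against 6.48% of all genes), and 1 was at least 2 lower, Btg2 (4.55%, against 1.79%). Ccng1, a cyclin-like protein, ran from 40.3 to 775 FPKM in every positive cell. Negative cells 16, 94 and 63 held 457, 354 and 50.4 FPKM, and cells 04, 29 and 96 held 0.291 FPKM or less (difference 2.84, SD over cells 1.52 and 3.85). Cdkn1a, the cell cycle inhibitor p21, ran from 16.2 to 326 FPKM around a median of 121 in the positive cells. Its negative values ran from 1.34 FPKM (cell 29) to 384 FPKM (cell 94) around 42.9. The difference of Cdkn1a was 1.53, was 0.88 without cell 29 and turned to -0.46 with sides set by Ly6a alone. Btg2, an antiproliferative gene, had medians of 0.254 and 46.8 FPKM (difference -2.92). By cell, cells 51 and 94 held the most p53 targets at 1 FPKM or more, 22 and 20 of 24, and cell 96 the fewest, 7. The median difference was 0.49 without positive cells 02 and 51, with the most genes detected of their side, and negative cells 56 and 96, with the fewest of theirs.

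Enterocyte genes were the identity group with the highest median difference, 1.46, and 6 of 14 were at least 2 higher (42.9%, against 6.48% of all genes). The median was 0.61 without a filter on low genes and 2.63 over genes averaging 10 FPKM or more. Prap1, a secreted protein of absorptive cells, was at 150 to 1124 FPKM in 7 positive cells and at 0 in cell 92. The negative cells held 18.2, 0, 315, 14.7, 0, 128 and 0 FPKM in cells 04, 16, 29, 56, 63, 94 and 96 (difference 4.45). Mttp, which loads lipid onto lipoproteins, was at 2.08 to 163 FPKM in 7 positive cells and at 0 FPKM in cell 92. Among the negative cells it was above 1 FPKM only in cells 04 and 16, with 111 FPKM in the latter. Reg3g, an antimicrobial lectin, reached 2660 FPKM in cell 51 and 1005 FPKM in cell 67. Fabp1 was at 1095 FPKM in cell 43 and at 179 FPKM in negative cell 29. The brush border enzymes Alpi, Lct and Sis were at 2.19 FPKM or less in all 15 cells.

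Paneth, goblet and tuft cell genes were lower in the positive cells by median differences of -1.45, -0.75 and -1.11. Each of these values depended at least in part on a few negative cells. With the median over cells in place of the mean, the goblet and tuft values were 0.00 and the Paneth value was -0.74. In the goblet and the tuft list, 1 of 12 genes each was at least 2 lower (8.33%). In the Paneth list 4 of 15 genes were at least 2 lower, Mmp7, Defa17, Gm14851 and Defa3 (26.7%, against 1.79% of all genes). Summed FPKM of the list was 22981 in cell 56, 4894 in cell 63, 3371 in positive cell 92 and 1984 in cell 96, and 845 or less in the other cells. Without cell 56 the median difference of the list was -0.75, and without cells 02, 51, 56 and 96 it was 0.02. Defensin genes are near-identical copies, so reads may be divided among them and single values are uncertain. Goblet genes summed to 44120 FPKM in cell 63, 26765 in positive cell 05 and 10638 in cell 04. Without cell 63 their median difference was 0.01. With all 15 cells kept, the median of the cells' mean goblet levels was higher in the positive cells (1.62 against 1.39). The tuft list rested on cell 96 alone, whose sum was 12474 FPKM while the other 14 cells held 20.8 FPKM or less.

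**Figure D4:**
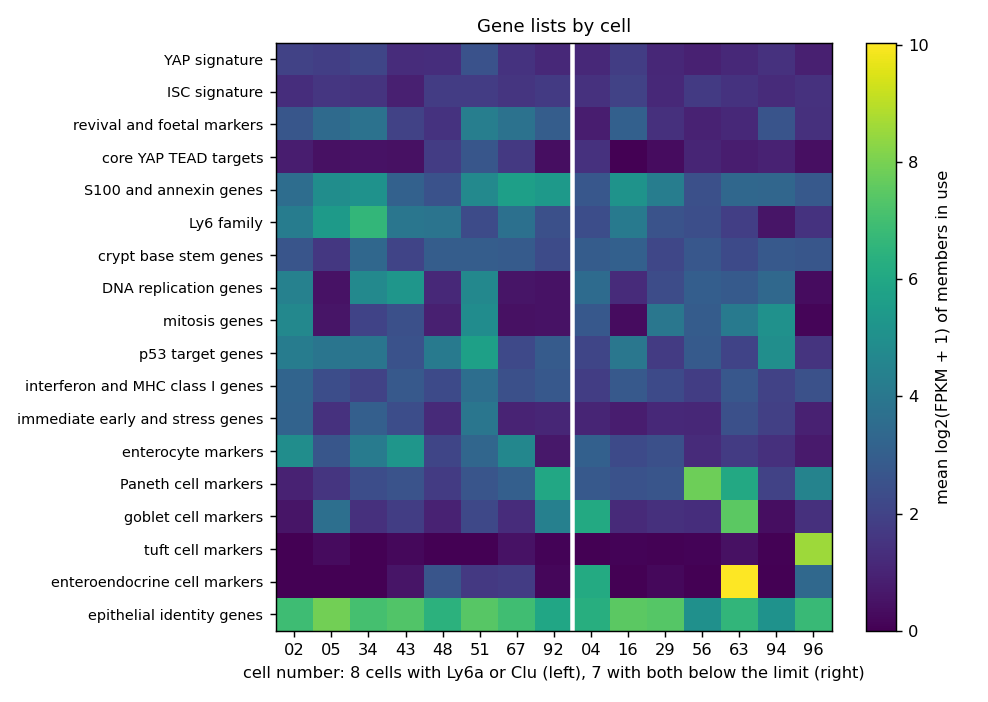
Mean log2(FPKM + 1) of the members in use of each gene list (rows) in each cell (columns, positive cells left of the white line), by colour. The revival, YAP signature and Ly6 rows include Ly6a or Clu. Tuft genes are bright in cell 96 only, Paneth genes in cells 56, 63, 92 and 96, and the enteroendocrine row rests on the 2 genes Reg4 and Sct, which are high in cell 63.

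Cell cycle genes divided both sides. Of 30 mitosis genes, 27 were at 1 FPKM or more in positive cells 02 and 51 and 5 or fewer in positive cells 05, 48, 67 and 92. Cells 34 and 43 held 16 and 18. In the negative cells 27, 26, 22, 19 and 16 were found in cells 94, 63, 29, 56 and 04, and 2 and 1 in cells 16 and 96. The median difference was -0.92, with 4 genes at least 2 lower (Hmmr, Mki67, Ccnb1 and Plk1; 13.3%, against 1.79% of all genes) and 1 higher (Pttg1; 3.33%, against 6.48%). It was -1.41 without cell 51 and -0.60 without cell 92, and it shrank to -0.18 with the limit for the sides at 0.1 FPKM and to -0.01 with sides set by Ly6a alone. Mki67, a marker of cycling cells, was at 13.6 FPKM or less in the positive cells and reached 158 FPKM in cell 04, 50.5 FPKM in cell 94 and 36.8 FPKM in cell 29. Its difference of -2.14 was -1.50 without cell 04, -0.05 with sides set by Ly6a alone and 0.31 with the limit at 0.1 FPKM. Replication genes gave a median difference of 0.39, -0.08 without cell 43 and -0.03 without cell 34 or cell 96, and 3 of 30 (10.0%, against 6.48%) were at least 2 higher. Over all 15 cells the median of the cells' mean replication levels was 2.78 in the positive and 2.85 in the negative cells. Mcm3, a subunit of the replicative helicase, was at 337, 268, 166 and 64.1 FPKM in cells 34, 43, 51 and 02 and at 37.4 FPKM or less in the negative cells (difference 2.64).

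Crypt base stem cell genes did not separate the sides, and their median difference was -0.15. It turned to 0.31 without cell 63, to 0.24 without cell 56 and to 0.54 with the limit for the sides at 0.1 FPKM. Among the 20 in use, 2 were at least 2 lower (10%, against 1.79% of all genes) and 0 at least 2 higher. Lgr5, the receptor that defines these cells, was at 20.7 FPKM in Clu cell 92, at 1.41 FPKM in Clu cell 48 and below 1 FPKM in the other 13 cells. Olfm4, a secreted stem cell marker, was at 485, 202 and 187 FPKM in Clu cells 67, 48 and 51, at 5.38 FPKM in cell 43 and below 1 FPKM in the other positive cells. Among the negative cells it was at 2353 FPKM in cell 96, 1515 FPKM in cell 56 and 149.5 FPKM in cell 04. The ISC signature, on which the study's clusters were formed, had a median difference of 0.04 (0.50 without cell 16 and -0.39 with sides set by Ly6a alone), with 1 of 54 genes (1.85%, close to the 1.79% of all genes), Olfm4, lower by at least 2. Without cell 96 the difference of Olfm4 was -1.07, and without cells 56, 63, 92 and 96 it turned to 0.91. Cd81 and Cd44, surface proteins used to sort crypt cells, had differences of 0.15 and -0.19, and both changed sign when single cells were left out.

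Immediate early and stress genes had a median difference of 0.83, with Egr1, Dnajb1 and Ppp1r15a at least 2 higher of 19 in use (15.8%, against 6.48% of all genes). Egr1, a growth-factor-induced transcription factor, was above 19 FPKM in 7 positive cells, up to 517 FPKM in cell 34, and at 0.808 FPKM in cell 92. The negative cells ran from 0 to 90.3 FPKM. Interferon and MHC class I genes had a median difference of 0.35 (0.10 without cell 94 and 0.64 without cell 02), with H2-D1 the only member at least 2 higher of 18 (5.56%, below the 6.48% of all genes). B2m, the MHC class I light chain, ran from 57.3 to 2360 FPKM against 12.4 to 466 FPKM. Epithelial identity genes had a median difference of 0.44 (0.28 without cell 56 and 0.94 without cell 96), with Krt19 and Klf5 at least 2 higher of 15 (13.3%, against 6.48%). Krt19, a keratin, was at 458 to 1364 FPKM in every positive cell while the negative cells held 26.5, 780, 422, 93.3, 242, 559 and 0.429 FPKM in cells 04, 16, 29, 56, 63, 94 and 96. Negative cells 16 and 94 thus lay inside the positive range, and cells 04 and 96 were lowest.

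Inside the positive side, the 4 Ly6a cells and the 4 Clu cells were set side by side, without a test. Ly6a cells were at least 2 higher in 1263 of the 8948 genes (14.1%) and at least 2 lower in 408 (4.56%), with a median over all genes of 0.35. Replication genes were higher in the Ly6a cells by a median of 1.98, with 15 of 30 at least 2 higher. Single cells went against this, since Ly6a cell 05 held 4 replication genes at 1 FPKM or more and Clu cell 51 held 27. Enterocyte genes were higher by 1.63 (6 of 14) and Paneth genes lower by 1.51 (6 of 15). In enterocyte genes Ly6a cell 05 went against this. Its mean log2(FPKM + 1) was 2.67, below 3.29 and 4.66 in Clu cells 51 and 67. Clu cell 92 had a mean Paneth level of 5.999 on the log2 scale, the other Clu cells had 1.74 to 3.03 and the Ly6a cells 0.95 to 2.55. Direct YAP and TEAD targets were lower in the Ly6a cells by 1.17 and S100 and annexin genes by 0.73, the latter with 6 genes at least 2 lower and 3 at least 2 higher. Yet Clu cells held the lowest mean levels of the positive cells in both lists. They were 0.36 in cell 92 for the direct targets and 2.54 in cell 48 for S100 and annexin genes. Genes detected ran from 4574 to 5779 in the Ly6a cells and from 3191 to 5666 in the Clu cells. Over pairs of cells, the mean Pearson r of log2(FPKM + 1) was 0.533 among Ly6a cells, 0.473 among Clu cells and 0.493 between them.

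Cells were next compared with the mean profile of each side, without Ly6a and Clu and with the cell left out of its own side. Of the 15 cells, 7 were nearer to their own side. In the positive side this held for 7 of 8 cells, the exception being Clu cell 92 (r = 0.605 with its own side and 0.607 with the other). In the negative side it held for none: all 7 cells correlated more with the mean of the positive cells, with r of 0.479 to 0.661 against 0.474 to 0.640 with their own. The mean of pairwise correlations, which does not depend on how many cells are averaged, gave 8 of 8 and 0 of 7. Among pairs the mean r was 0.498 within the positive side, 0.428 within the negative side and 0.459 between them. The closest single cell was a positive cell for all 8 positive and 6 of the 7 negative cells. It was most often cell 02, which also had the most genes detected, and the part of detection in these correlations was not tested. Without cells 02, 51, 56 and 96, 5 of 11 cells were nearer to their own side. With the limit for the sides at 0.1 FPKM, where 12 cells were positive, it was 12 of 15 cells by both measures. With sides set by Ly6a alone it was 11 of 15 by the means and 5 of 15 by pairwise r.

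**Figure D5:**
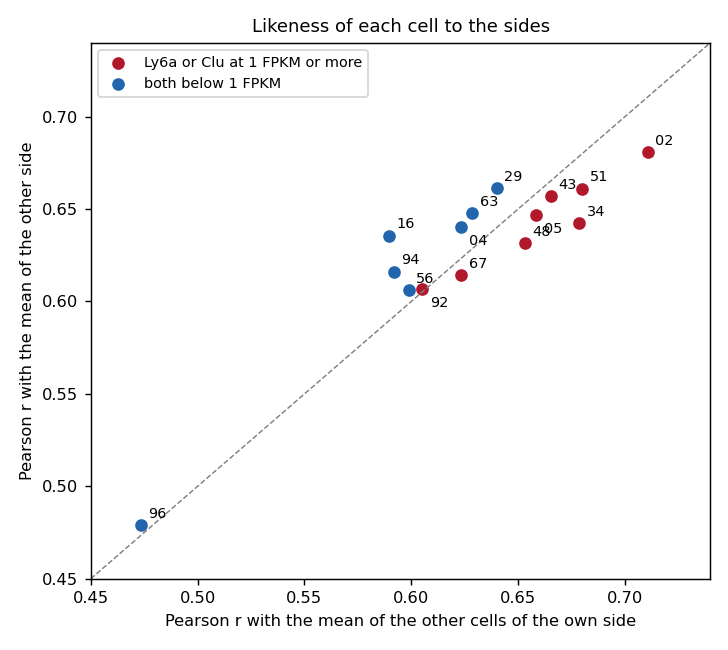
Pearson r of each numbered cell with the mean of the other cells of its own side (horizontal) and with the mean of the other side (vertical), over genes in use without Ly6a and Clu. The 7 negative cells lie above the dashed line of equality, cell 96 lowest, and the positive cells below it except cell 92, which lies on it.

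The negative cells that departed from their side did so in different directions. Cell 96 was the farthest, with r = 0.474 to its own side against 0.590 to 0.640 for the other negative cells. It carried tuft cell genes at high levels: Alox5ap, of leukotriene synthesis, at 5443 FPKM, the signalling regulator Rgs13 at 3217 FPKM, Lrmp at 1957 FPKM, the actin regulator Avil at 1162 FPKM and the defining kinase Dclk1 at 222 FPKM. The highest value of the 4 leading genes in any other cell was 1.48 FPKM. It also had the highest Cd24a (3151 FPKM), 1 of 30 mitosis genes at 1 FPKM or more, and the fewest genes detected of all cells (2988). Cell 56 carried Paneth defensins, with Defa24 at 8338 FPKM and Defa23 at 4964 FPKM, together with Olfm4 at 1515 FPKM and 19 of 30 mitosis genes.

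Cell 63 held secretory genes of several kinds. Agr2, a secretory pathway isomerase, was at 23329 FPKM, Tff3 at 9579 FPKM, Spink4 at 7773 FPKM, Reg4 at 4547 FPKM, Lyz1, a Paneth lysozyme, at 1498 FPKM and the mucin Muc2 at 387 FPKM. Its own genes, those most above any other cell, were Creb3l4 at 325 FPKM and Gkn3 at 302 FPKM. Cell 04 held Agr2 at 6447 FPKM and Tff3 at 2850 FPKM, with the goblet factor Spdef at 49.8 FPKM and Atoh1, the switch to secretory fate, at 7.78 FPKM. It had the highest Mki67 of the 15 cells.

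Cell 16 held several of the revival and foetal markers. Without Ly6a and Clu it had 8 of 21 at 1 FPKM or more, where the positive cells had 5 to 12, with Anxa3, Il1rn, Tnfrsf12a and Il33 at 212, 164, 132 and 92.1 FPKM. Mdm2, a p53 target that degrades p53, was at 128 FPKM, S100a11 at 1998 FPKM and Ces2e at 338 FPKM. Other genes followed its own side, with Akr1c19, Ugt1a7c and Prap1 at 0 FPKM, Mmp7 at 456 FPKM and Id3 at 640 FPKM. Its r was 0.636 with the positive and 0.590 with the negative side, the widest gap of the negative cells, and its closest cell was Ly6a cell 05 (r = 0.496). It stood just under the limit by Ly6a. Cell 94, just under it by Clu, held Tnfrsf12a, Plaur and Gja1 at 167, 27.8 and 53.6 FPKM. It had 20 of 24 p53 targets and 27 of 30 mitosis genes at 1 FPKM or more. Cell 29 had the highest enterocyte sum of the negative cells (812 FPKM), and was marked by Mettl4 (276 FPKM) and Atp7b (114 FPKM).

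Among the positive cells, cell 92 stood apart. It had the highest Clu, Lgr5 and Anxa1 of the 15 cells and 9 of 17 goblet and 13 of 18 Paneth genes at 1 FPKM or more, with Defa24 at 1229 FPKM. Its enterocyte genes summed to 37.7 FPKM, against 959 to 3074 FPKM in the other positive cells. Cell 05, a Ly6a cell, held Agr2 and Tff3 at 15335 and 11289 FPKM without Muc2 or Spdef (both at 0 FPKM), and was marked by Gpx3, an extracellular glutathione peroxidase, at 540 FPKM. Cell 43 was the shallowest, and rested on 1 read for its place. It had the highest Fabp1 and Rrm2 (1095 and 376 FPKM) and held Psd4 and the brush border enzyme Car4 at 195 and 148 FPKM, both at 0 elsewhere.

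The remaining positive cells were 02, 34, 48, 51 and 67. Cell 34, the highest in Ly6a and Ly6e, held Emp3 at 158 FPKM, the replication gene Ung at 109 FPKM and 22 of 30 replication genes at 1 FPKM or more. Cell 02 had the highest correlation with its side (r = 0.711) and 27 genes each of the replication and mitosis lists. Its own leading genes were the short RNAs Mir20a, Snora31 and Snora74a (77 to 110 reads, transcripts of 107 to 198 bases), whose FPKM is inflated by their length, and Gdap10 at 112 FPKM. Cell 51, a cycling Clu cell, had the most YAP signature and p53 genes, with Mdm2 at 607 FPKM and Areg, a growth factor of the EGF family, at 227 FPKM. It was the only cell with H2-Aa, an MHC class II gene, above 1 FPKM (178 FPKM). Clu cells 48 and 67 held few cycle genes. Cell 48 had the highest Cd44 (640 FPKM) and B2m, and cell 67 the highest Plaur, Anxa2 and Akr1c19, with Strn (357 FPKM) and Hemgn (269 FPKM) as its own genes.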

How the data were processed

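RNA of single cells was amplified with SMARTer chemistry on Fluidigm C1 chips and sequenced in both directions from Nextera XT libraries. What the authors deposited were FPKM values, scaled per cell, and unnormalised estimated counts, for 25219 genes in each of 39 cells. The submitters' processing notes name bcl2fastq 1.8.4, TopHat2 2.0.14 and mm10 (GRCm38), and the program that made the values is not given in the sources used here. Without molecular identifiers a count is not a molecule, and short or near-identical genes are uncertain. Capture sites were inspected by microscope, and doublets were not called.

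Cell numbers of Cluster 2 came from the heat map's labels. Sides were set at 1 FPKM of Ly6a or Clu. Deposited FPKM was taken as log2(FPKM + 1), for genes whose 15 values averaged 1 FPKM or more. Counts served for depth and, rounded, for thinning to 600000 reads. The cells are 1 sample, so no count model was fitted and differences of 2 log2 units were counted. Members and lists were chosen with earlier results of these data known. The YAP and ISC lists came from the study's supplement, the others were written by hand.

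Named genes were the 12 largest differences per direction (mean of at least 10 FPKM and at least 1 FPKM in 50% of cells of the higher side), 4 genes per cell at 50 FPKM or more farthest above the other cells, the 3 largest and the most abundant of each list, genes without overlap, and Lgr5, Olfm4, Mki67, Cdkn1a, Cd81, Cd44, Cd24a, S100a6, Epcam and the Ly6 family. Other named genes are list members chosen after their values were seen. Alternatives changed the pseudocount, filter, scaling, average, limit and cells. Steps were tested on simulated data. Tools were matplotlib 3.10.9, pandas 2.3.3, Python 3.11.15, scipy 1.17.1 and numpy 2.4.6.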

Additional observations from a re-analysis of the deposited data

Results flagged for a closer look

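In each side, the highest and lowest cell of 108 sets of values (depth, detection, likeness, list means and named genes) were compared with the nearest other cell by Dixon's ratio of gap to range. In 20 sets the gap passed the 95% critical value, which chance passes in about 1 in 20 single sets. The sets share cells, both ends were looked at, and a gene chosen for a side near 0 passes with any single cell above it, so the 20 cannot be read against that rate. In the positive cells, cell 43 had 661255 estimated reads on genes, far below the others. Cell 92 was set apart by its mean Paneth marker level of 5.999 on the log2(FPKM + 1) scale and by Lgr5 at 4.44 on the same scale. In the negative cells, cell 96 stood apart by its correlation with its own side (r = 0.474) and by its mean tuft marker level of 8.58 on the log2(FPKM + 1) scale.

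The other gaps were in single named genes, on the log2(FPKM + 1) scale. Among genes higher in the positive cells, Dynlt3 was at 0 in cell 43, Mrpl40 at 0 in cell 92 and Itpa at 0 in cell 67. Of the same genes, negative cells stood out with Akr1c19 at 0.31 in cell 96, Gstm1 at 8.07 in cell 63, Dynlt3 at 3.48 in cell 94, Aarsd1 at 5.12 in cell 04 and Ugt1a7c at 1.57 in cell 94. Among genes lower in the positive cells, a single positive cell stood above the rest in Mmp7 (2.53 in cell 51), Tmem106c (6.43 in cell 34), Thap11 (1.83 in cell 02), Pipox (1.68 in cell 51), Rngtt (3.72 in cell 34) and Tmem251 (3.70 in cell 05). Cd81 was lowest, at 2.77, in cell 43.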

How the results depend on the processing

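No paired analysis was possible because the values come from no test and the cells carry no shared number. With a pseudocount of 0.1 FPKM, 1631 genes were at least 2 higher and 543 at least 2 lower in the positive cells, and interferon and MHC class I genes had a median difference of 1.13. With the median over cells these counts were 1142 and 381, and the medians of the YAP signature (with and without Ly6a and Clu) and the Ly6 family were 0.00 and 1.16. Without a filter on low genes the Ly6 family had 0.22, or 0.17 without Ly6a. With the limit at 0.1 FPKM, 12 cells were positive and only cells 56, 63 and 96 were negative. The counts were then 1073 and 503, and 12 cells were nearer to their own side. The medians at this limit were 0.36 for the ISC signature, 0.54 for crypt base genes, -0.18 for mitosis genes, 0.00 for interferon genes and -3.50 for Paneth genes. Snupn and Mki67 then turned to 1.95 and 0.31. With the limit at 10 FPKM, 5 cells were positive, 254 genes were at least 2 lower, and 5 cells were nearer to their own side by pairwise r. Paneth genes were then at -0.09, goblet genes turned to 0.34 and replication genes to -0.55, and the Ly6 family without Ly6a was at 1.31. By Ly6a alone 4 cells were positive, 1057 genes were at least 2 higher, 11 cells were nearer by means and 5 by pairwise r, the ISC signature was at -0.39, core YAP targets were at -0.59, the Ly6 family without Ly6a was at 1.32, mitosis genes at -0.01, S100 and annexin genes at 0.13 and p53 targets at 0.59, S100a6 turned to 1.76, Cdkn1a to -0.46 and Cdk4 to 0.011.

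Of the alternatives chosen after seeing the data, leaving out cells 43 and 96 gave 288 lower genes and 0.34 for the ISC signature. Without cells 02, 51, 56 and 96 these were 502 and 0.36, and Paneth genes turned to 0.015. Without cells 56, 63, 92 and 96 there were 408 lower genes, the ISC signature was at 0.53 and crypt base genes at 0.45, and Olfm4 turned to 0.91. With each cell left out in turn, the genes at least 2 higher numbered 527 to 735 and those lower 142 to 247. The lower count was above 1.5 times its value only without cell 56 (247) or cell 96 (241). The ISC signature ran from -0.042 to 0.50, and the number of cells nearer to their own side from 5 to 8. The medians of the revival list without Ly6a and Clu (0.73 to 1.39), p53 targets (0.92 to 1.54) and enterocyte genes (1.21 to 1.77) stayed above 0 in all 15 runs, while core YAP targets ran from 0.25 to 0.74, replication genes from -0.08 to 0.75 and crypt base genes from -0.22 to 0.31. Apart from the fewer cells of some settings, the cause of these changes was not tested. At this depth 1 read of Ly6a was worth 0.245 to 1.26 FPKM, so a limit of 1 FPKM lay near single reads in cell 43.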
